A study of Mus musculus with 12 samples.

Results

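The replication-dependent histone genes encode the core histones H2A, H2B, H3 and H4 and the linker histone H1 that package newly copied DNA. They were taken as every gene of the deposited RPKM table (read counts scaled by transcript length and by the mapped reads of the library) whose symbol starts with Hist1h, Hist2h, Hist3h or Hist4h. This gave 66 of 28793 genes, of which 6 are named as H1, 18 as H2A, 19 as H2B, 10 as H3 and 13 as H4. Not all of them encode a histone: the GENCODE M21 annotation lists Hist1h2aj, Hist1h2al and Hist3h2bb-ps as pseudogenes and Hist2h2bb as a long noncoding RNA. By symbol, 56 of the 66 belong to the Hist1 cluster, 6 to Hist2, 3 to Hist3 and 1 to Hist4. The study measured RNA of the mouse large intestine in 12 libraries from C57BL/6 mice, all aged 3 months, that differ in the telomerase gene Tert. Sorted GFP-positive crypt cells, labelled stem/progenitor cells, came as 3 libraries labelled mTert_HET and 3 labelled mTert_NULL_Generation3. Unsorted crypt epithelial cells came as 2 libraries labelled mTert_HET, 2 labelled mTert_NULL_Generation4 and 2 labelled mTert_reactivated_Generation4. The labels call each library a biological replicate without naming an animal, so p-values measure the spread between these samples. The labels do not say which promoter drives the GFP, whether cells of several mice were pooled, or by which allele or agent Tert was reactivated, beyond the word tam in the description of those samples. All 12 libraries carry the same account of RNA extraction and library kit.

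Histone mRNA of this kind is made in bulk during S phase, when NPAT switches on the clusters, and is degraded when DNA synthesis ends. Most of these transcripts have no poly(A) tail: they end shortly after a conserved stem-loop that is bound by the stem-loop binding protein SLBP, and cleavage there needs the U7 small nuclear RNA. A preparation that captures poly(A) tails therefore misses most of them, while read-through transcripts with a tail are still captured. In crypts the transit-amplifying cells divide fastest, and histone mRNA is a usual mark of such cells.

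The stem-loop is shown first because it separates these genes from other mRNAs. The GENCODE M21 transcripts (GRCm38, the build called mm10) of 43 of the 66 genes contained it, in 8 different sequences. One of these, found in 23 genes, is the site of Hist1h1e and Hist1h2bm below, and the form of Hist1h4d and Hist1h4h was found in 7 genes. Each line gives the site 5′ to 3′ as DNA letters, with the stem-loop of 16 bases in capitals and 5 bases on each side.
Hist1h1e: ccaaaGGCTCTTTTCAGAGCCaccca
Hist1h2bm: acaaaGGCTCTTTTCAGAGCCactaa
Hist1h3c: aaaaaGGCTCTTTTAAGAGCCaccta
Hist1h4d: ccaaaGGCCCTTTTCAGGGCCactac
Hist1h4h: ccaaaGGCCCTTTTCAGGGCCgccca
Hist3h2a: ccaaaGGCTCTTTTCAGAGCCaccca
Hist1h1e and Hist3h2a have the same 26 letters, and Hist1h4d and Hist1h4h the same stem-loop, yet their levels in the data below were far apart. The other 23 models held no stem-loop in their sequence. Only a fixed pattern of letters within the annotated transcripts was searched. A model that stops before the end of the real transcript cannot show the site, so these genes may still have it. Among them are Hist1h1b, Hist1h2bl and Hist1h2ak, whose models span 743, 381 and 393 bases.

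Promoters of 57 members matched the RefSeq promoter table (GRCm38.p6, 27025 promoters of 300 bases, 250 before and 50 after the start). The motifs were searched by their letters on both strands, each counted on its own. CCAAT was found in 84.2% of the histone promoters and in 37.9% of all promoters, in every matched H1, H2A, H2B and H3 promoter and in 3 of 12 for H4. The octamer ATTTGCAT was found in 7 of 15 H2A and 6 of 16 H2B promoters and in none of the other classes, against 1.8% of all promoters. H2A and H2B genes that lie back to back share much of this window. The same site can thus be counted in both classes, as it was for Hist1h2ae and Hist1h2bg. TATAAA was found in 59.6% of the histone promoters and 14.2% of all, and AAACACA in 5 of 6 H1 promoters and 7.1% of all. The 140 bases before the start of an H1, an H2B and an H4 gene show where such motifs can lie, with these motifs in capitals on whichever strand they lie. Hist1h2bb is 1 of the 6 of 16 H2B promoters with the octamer, and Hist1h4d 1 of the 3 of 12 H4 promoters with CCAAT. In these motifs neither stands for most of its class.
Hist1h1b, chr13:21780626-21780765, minus strand: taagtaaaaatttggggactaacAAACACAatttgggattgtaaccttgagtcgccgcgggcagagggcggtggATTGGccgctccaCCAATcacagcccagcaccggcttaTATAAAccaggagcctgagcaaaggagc
Hist1h2bb, chr13:23746594-23746733, plus strand: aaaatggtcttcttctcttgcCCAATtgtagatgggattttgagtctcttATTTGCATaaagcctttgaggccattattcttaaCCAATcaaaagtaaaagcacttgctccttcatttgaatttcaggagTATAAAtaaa
Hist1h4d, chr13:23581428-23581567, plus strand: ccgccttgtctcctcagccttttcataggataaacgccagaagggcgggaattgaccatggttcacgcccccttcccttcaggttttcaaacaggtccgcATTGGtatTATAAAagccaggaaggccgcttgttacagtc
A match is a description of these letters only.

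Before the results, 4 facts of the libraries bear on them. In unsorted crypts Tert itself stood at 0.459 and 0.251 RPKM with the heterozygous label, 0.00778 and 0.0377 with the null G4 label, and 0.0171 and 0.0311 with the reactivated label, so the last lay among the null values. In sorted cells its values of 0.0424, 0.0583 and 0.169 RPKM (heterozygous) overlapped with 0, 0.0787 and 0.00131 RPKM (null G3). Null G3 replicate 1 stood apart: its small intestine markers summed to 5518 RPKM, where the remaining sorted libraries had 86.6 to 133, and the stem cell marker Lgr5 was at 0.121 RPKM, where they had 3.40 to 4.74, so it goes against its cell type label. Among the unsorted libraries, both heterozygous libraries and reactivated replicate 2 expressed Y-linked genes (summed 18.2 to 18.9 RPKM), whereas both null G4 libraries and reactivated replicate 1 expressed Xist at 22.3 to 28.6 RPKM and had Y-linked sums of at most 0.0148 RPKM. Genotype and sex thus cannot be told apart between the heterozygous and null G4 unsorted libraries. Among the sorted libraries, null G3 replicate 2 was the one with Y-linked expression, at a sum of 8.54 RPKM. Epcam, an epithelial surface marker and 1 of 8 epithelial markers examined, was at 134 RPKM or more in every library. Summed, the 8 markers stood at 522 to 1061 RPKM in sorted and 1619 to 3366 RPKM in unsorted libraries.

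Histone genes were far more abundant in unsorted crypts than in sorted cells. Their summed level was 2206 and 2124 RPKM in the heterozygous, 3756 and 3534 in the null G4, and 3906 and 1938 in the reactivated-labelled unsorted libraries. In sorted cells the sum was 365, 413 and 173 RPKM in the heterozygous and 39.4, 225 and 368 in the null G3 libraries. Every unsorted library lay above every sorted library. A mean of 1 RPKM or more was reached by 53 genes over the 6 unsorted libraries and by 24 over the 6 sorted ones, a mean of 10 RPKM by 40 and 7, and a mean of 100 RPKM by 10 and 0.

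**Figure D1:**
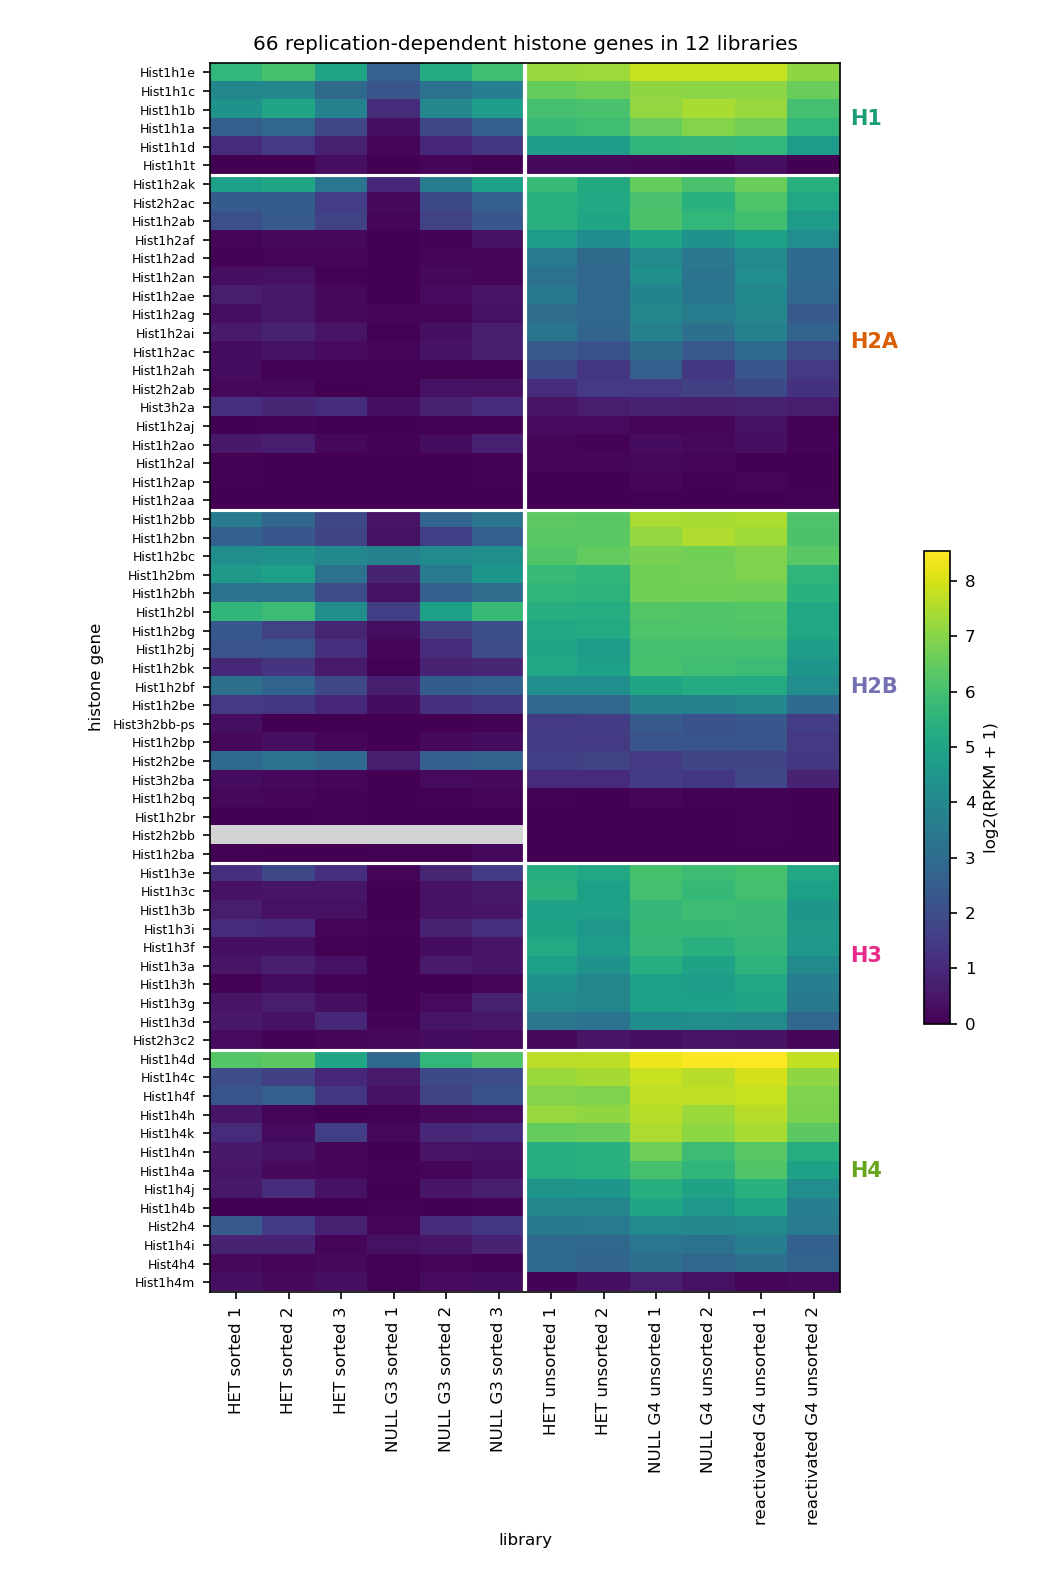
Level of each of the 66 histone genes (rows, by class and falling mean in unsorted crypts) in each of the 12 libraries (columns), as log2(RPKM + 1) from dark (0) to yellow; grey marks Hist2h2bb, which is listed for the unsorted libraries only. The right-hand 6 columns are brighter in most rows, and among them null G4 1 and 2 and reactivated 1 are brightest.

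H4 genes gave 37.8% of the summed histone level in unsorted crypts and 23.6% in sorted cells. H4 pairs with H3 at the centre of the nucleosome, and all H4 genes encode nearly the same protein. Hist1h4d was the most abundant of all 66 in both preparations. It was at 200 and 203 RPKM in heterozygous unsorted crypts, at 318 and 358 RPKM in those of null G4, and at 370 and 214 RPKM in the reactivated-labelled ones, and at 77.4, 82.0 and 32.5 RPKM in heterozygous sorted cells. The 2 heterozygous unsorted libraries were the lowest of the 6 for this gene, with reactivated replicate 2 just above them. Hist1h4c ranked next in unsorted crypts, from 138 to 253 RPKM, but lay between 0.526 and 3.06 RPKM in sorted cells. Hist1h4h was at 148 and 138 RPKM in heterozygous unsorted crypts and at 0.439, 0.0889 and 0.0110 RPKM in heterozygous sorted cells. Hist1h4f, Hist1h4k, Hist1h4n, Hist1h4a, Hist1h4j, Hist1h4b, Hist2h4, Hist1h4i and Hist4h4 also had means above 1 RPKM in unsorted crypts, and the lowest of the 12 such H4 means was 6.63 RPKM.

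H1 linker histones, which bind the DNA between nucleosomes, gave 18.2% of the unsorted and 27.9% of the sorted sum. Hist1h1e was at 146 and 155 RPKM in heterozygous unsorted crypts, at 224 and 225 RPKM in those of null G4, and at 225 and 138 RPKM in the reactivated-labelled ones, and at 49.7, 65.97 and 30.6 RPKM in heterozygous sorted cells. Hist1h1b was at 64.0 and 67.5 RPKM in heterozygous unsorted crypts, at 142 and 174 RPKM in those of null G4, and at 149 and 64.5 RPKM in the reactivated-labelled ones. For both genes, the 2 null G4 libraries and reactivated replicate 1 stood above the other 3 with no overlap. Hist1h1c, Hist1h1a and Hist1h1d followed with lowest and highest unsorted values of 91.5 and 137, 49.2 and 123, and 24.9 and 49.9 RPKM.

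H2B genes, whose protein pairs with H2A, gave 25.4% of the unsorted and 36.6% of the sorted sum. Hist1h2bb led in unsorted crypts at 84.4 and 80.2 RPKM in heterozygous unsorted crypts, at 175 and 170 RPKM in those of null G4, and at 179 and 71.9 RPKM in the reactivated-labelled ones. Hist1h2bl led in sorted cells at 48.3, 57.2 and 17.5 RPKM in the heterozygous libraries, close to its 40.8 and 38.4 RPKM in heterozygous unsorted crypts. Hist2h2be went the other way: it was at 6.62, 8.09 and 6.48 RPKM in heterozygous sorted cells and at 2.01 and 2.20 RPKM in heterozygous unsorted crypts. Its model of 2620 bases on chromosome 3 held no stem-loop, and none of its 50-base stretches occurred in another gene's transcripts. Hist1h2bn, Hist1h2bc, Hist1h2bm, Hist1h2bh, Hist1h2bg, Hist1h2bj, Hist1h2bk, Hist1h2bf, Hist1h2be, Hist3h2bb-ps, Hist1h2bp and Hist3h2ba complete the 15 H2B genes with an unsorted mean of 1 RPKM or more.

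H3 genes, whose protein pairs with H4, gave 10.2% of the unsorted and 1.63% of the sorted sum. The summed H3 level was 249.5 and 194 RPKM in heterozygous unsorted crypts and 5.04, 6.40 and 3.83 RPKM in heterozygous sorted cells. Hist1h3e, Hist1h3c, Hist1h3b, Hist1h3i, Hist1h3f, Hist1h3a, Hist1h3h, Hist1h3g and Hist1h3d had unsorted means from 12.2 to 48.8 RPKM and sorted means from 0.0731 to 1.30 RPKM. H2A genes gave 8.35% of the unsorted and 10.2% of the sorted sum. Hist1h2ak led them at 53.3 and 35.6 RPKM in heterozygous unsorted and 26.97, 31.9 and 9.25 RPKM in heterozygous sorted libraries. Hist2h2ac, Hist1h2ab, Hist1h2af, Hist1h2ad, Hist1h2an, Hist1h2ae, Hist1h2ag, Hist1h2ai, Hist1h2ac, Hist1h2ah and Hist2h2ab complete the 12 H2A genes with an unsorted mean of 1 RPKM or more. The remaining 13 histone genes were below that mean and reached at most 0.707 RPKM in any unsorted library. Of these, Hist3h2a, named because of its values, reached 1.26 RPKM in sorted cells.

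Many of these genes are near copies, so how the reads were shared between them bears on single values. Over the 66 genes, the median share of a gene's 50-base stretches that occurred in no other gene was 53.6%. It was 98.9% for H1, 60.5% for H4, 56.2% for H2B, 42.8% for H3 and 32.7% for H2A. Values of single genes with many shared stretches, in H2A, H3 and also H2B, are thus uncertain.

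H2A and H2B genes often lie back to back, and 9 such divergent pairs had starts 163 to 280 bases apart on chromosome 13. Partners could differ in level, as the 2 pairs with the highest sorted levels show. Hist1h2bl had a mean of 34.2 RPKM in sorted and 56.4 in unsorted libraries, whereas its partner Hist1h2ai had 0.433 and 8.90. Hist1h2ak had 18.01 and 64.6 RPKM, and its partner Hist1h2bn 3.14 and 119.8. In this pair the order of the genes turned around between the preparations. Hist1h2an and Hist1h2bp had similar low sorted means of 0.1445 and 0.1472 RPKM, but unsorted means of 10.8 and 2.74 RPKM. Hist1h2ba and Hist1h2aa were near 0 in both preparations. Few stretches of these genes were their own, 17.2% for Hist1h2bl, 9.88% for Hist1h2ai, 47.7% for Hist1h2ak and 13.6% for Hist1h2bn, so the levels within the first 2 pairs are uncertain.

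Comparing heterozygous sorted cells with heterozygous unsorted crypts, most histone genes were lower in the sorted cells. Of 54 tested, 46 were lower and 1 higher at an adjusted p under 0.05 (limma on log2(RPKM + 1), Benjamini-Hochberg over all genes), where 31.3% of all tested genes were lower and 4.32% higher. Values did not overlap for 51 lower and 2 higher histone genes, where 54.9% and 20% of all tested genes did so. With the 5 heterozygous libraries alone, 50 were lower and 2 higher, where 44.9% of all genes were lower and 14.7% higher. The median log2 difference of the histone genes was -3.003, against -0.39 for all tested genes. A gene, on any list, could enter this fit through the unsorted libraries alone, which favours lower values in sorted cells. With the sorted libraries fitted apart, 26 histone genes were tested. Without the filter on low values, 46 of 65 histone genes were lower, as were 5587 of all 24250 genes. The medians were then -2.64 and -0.067. By class the median was -4.39 for H4, -4.04 for H3, -2.99 for H1, -2.58 for H2A and -1.61 for H2B. Calls of lower level were made for 11 of 12 H4, 9 of 9 H3, 3 of 5 H1, 11 of 13 H2A and 12 of 15 H2B genes.

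Hist1h4h fell by 6.95 on the log2(RPKM + 1) scale (SE 0.30, adjusted p = 2.5e-07, limma). Hist1h4c fell by 5.80 (SE 0.48, adjusted p = 1.6e-05, limma), and the H3 gene Hist1h3c fell by 4.71 (SE 0.35). Among H1 genes, Hist1h1d fell by 3.66 (SE 0.40) and Hist1h1c by 2.99 (SE 0.45), and Hist1h2bc fell by 2.17 (SE 0.31). Each of these genes was lower in all 3 sorted than in both unsorted heterozygous libraries. Of the 7 genes with a sorted mean of 10 RPKM or more, Hist1h2bc passed and the other 6 did not. Hist1h4d had a difference of -1.75 (SE 0.81, adjusted p = 0.12, limma), Hist1h1e of -1.67 (SE 0.76) and Hist1h1b of -1.67 (SE 0.86). Hist1h2bm had -1.47 (SE 0.88), Hist1h2ak -1.08 (SE 0.92) and Hist1h2bl -0.11 (SE 0.98, adjusted p = 0.94, limma). All of these but Hist1h2bl were still lower in every sorted than in every unsorted heterozygous library. Hist1h4d, Hist1h1e, Hist1h1b and Hist1h2bm passed as lower when null G3 replicate 1 was left out of the estimate of spread. Hist3h2a had a difference of 0.49 (SE 0.19, adjusted p = 0.069, limma). Hist2h2be rose by 1.37 (SE 0.49, adjusted p = 0.047, limma), a call that was lost under 15 of 21 other settings, with adjusted p from 5.9e-05 to 0.18.

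**Figure D2:**
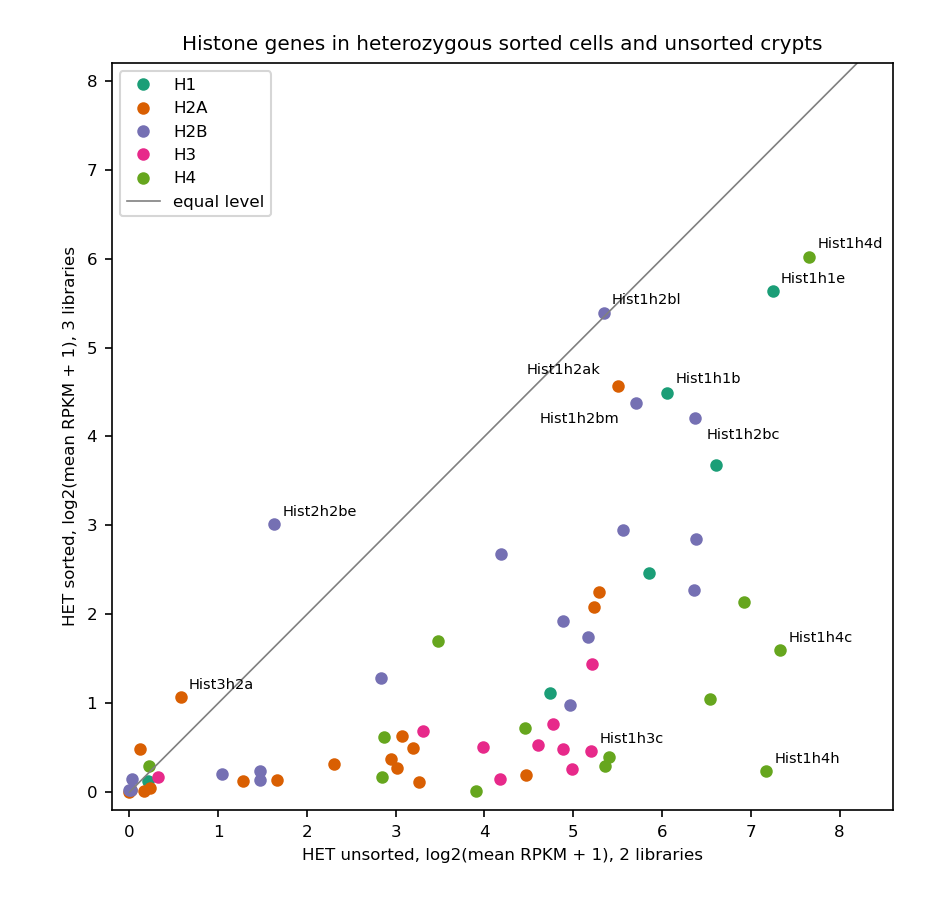
Mean level of each histone gene in heterozygous unsorted crypts (horizontal, 2 libraries) and heterozygous sorted cells (vertical, 3 libraries), as log2(mean RPKM + 1), coloured by class; the line marks equal level. Most points lie near the bottom, Hist1h2bl lies on the line, and Hist2h2be and Hist3h2a lie above it.

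Cell cycle genes did not follow the histones between the preparations. Of 45 tested S phase genes (replication factors and their regulators), 1 was higher and 1 lower in sorted cells, with a median difference of 0.32. Of 22 G2/M genes, 1 was higher and none lower, with a median of 0.95. The proliferation marker Mki67 stood at 63.1 to 75.2 RPKM in heterozygous sorted and 19.6 and 20.4 RPKM in heterozygous unsorted libraries. The summed histone level per summed S phase level was 9.19 to 11.9 in the 6 unsorted and 0.925 to 1.53 in the 6 sorted libraries. Variant histones, most of whose mRNAs carry a poly(A) tail, had 1 of 10 higher and none lower, with a median of -0.18. H2afz, the variant H2A.Z, was at 86.8, 125 and 75.7 RPKM in heterozygous sorted and 26.5 and 27.5 in heterozygous unsorted libraries. H3f3b, a gene for H3.3, was at 23.6 to 34.1 RPKM in sorted and 56.3 and 67.9 in unsorted heterozygous libraries.

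RNAs that lack a poly(A) tail did move with the histones here. Of 19 tested, 18 were lower in sorted cells and none higher, with a median log2 difference of -5.31. Their summed level was 12005 to 29766 RPKM in unsorted and 107 to 255 RPKM in sorted libraries, and without Malat1 and Neat1 5.85 to 34.0 RPKM in sorted libraries. Rmrp, the RNA of RNase MRP, was at 3588 and 1852 RPKM in heterozygous unsorted and 0.220, 0.228 and 0.192 RPKM in heterozygous sorted libraries. Terc, the telomerase RNA, was at 8.57 and 4.65 RPKM in unsorted and at most 0.0670 RPKM in sorted heterozygous libraries. The labels give 1 kit and 1 protocol for all 12 libraries and do not say whether poly(A) RNA was selected. Some markers of differentiated cells were lower in sorted cells as well. Of 6 colonocyte genes 3 were called lower, with a median of -2.63, and of 9 goblet entries 4 (3 of them Muc2), with a median of -2.24. Enteroendocrine genes were mixed: 2 of 5 were called lower, with a median of -0.98, and 2 were positive, up to 1.89. The summed enteroendocrine level averaged 103 RPKM in heterozygous sorted and 53.4 RPKM in heterozygous unsorted libraries. Of 4 tuft genes, 1 was called lower and 2 were positive, with a median of 0.15. Of 8 epithelial genes, 3 were called lower and 2 were positive, with a median of -1.03. The share of summed RPKM held by mitochondrial ribosomal RNA was 38.7 to 53.6% in heterozygous sorted and 19.2 and 27.3% in heterozygous unsorted libraries. Cell population and RNA preparation thus cannot be told apart in this comparison, and their part in the lower histone level was not tested. In these bulk samples, fewer cells of a type and less RNA per cell cannot be told apart either.

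**Figure D3:**
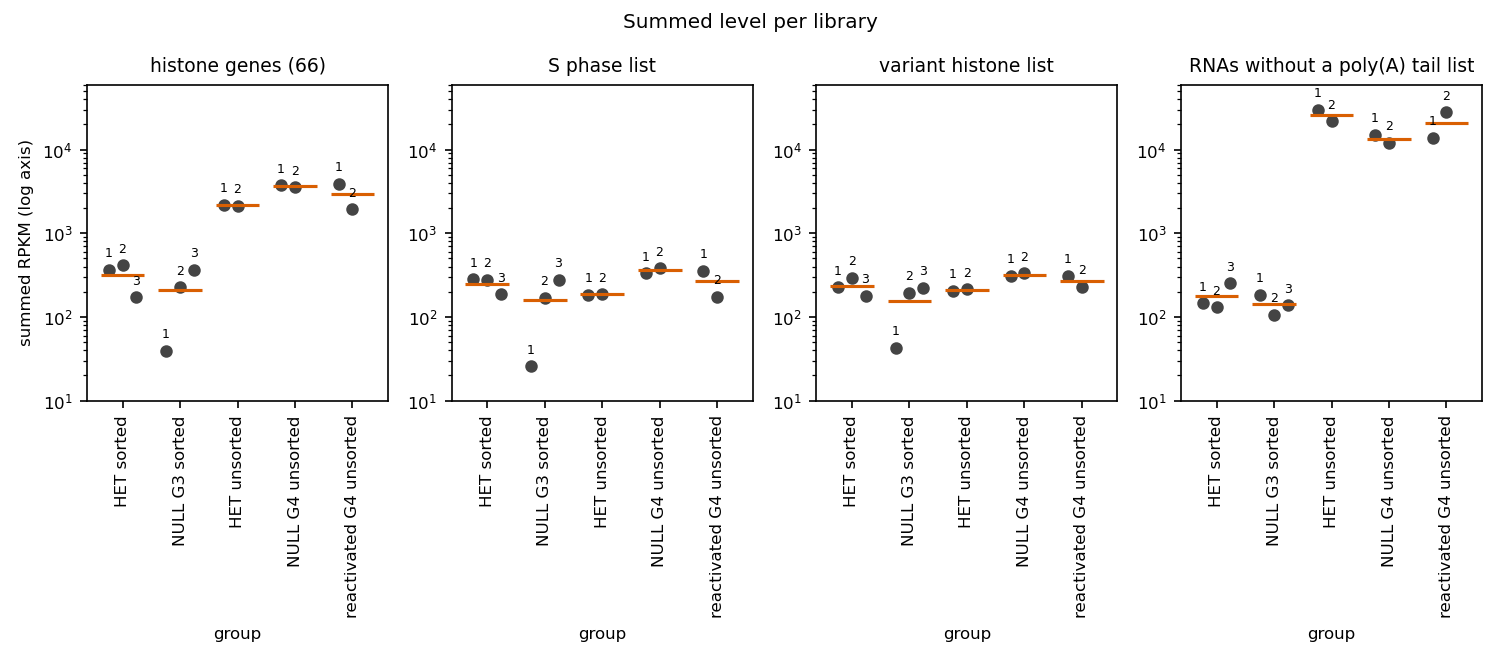
Summed RPKM per library (log axis) of the 66 histone genes, the S phase list, the variant histone list and the list of RNAs without a poly(A) tail, by group; numbers name the replicate and orange lines are group means. The histone genes and the RNAs without a tail are higher in every unsorted library than in any sorted one, while S phase and variant histone sums overlap between the preparations.

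Where a gene model runs on past the stem-loop, a transcript could be longer than the processed form. Of the 54 genes, 20 had models that ran on 100 bases or more after the stem-loop, and 17 of them were lower in sorted cells, with a median of -2.68. Models that ended sooner gave 17 of 18 lower, with a median of -3.58, and models without a stem-loop 12 of 16, with a median of -2.29. Hist1h4d, Hist1h1e and Hist3h2a have models running on 770, 1153 and 1643 bases. Hist1h1d has one running on 4884 bases and was among the genes called lower. An annotated model does not show which transcript was made, and the part of transcript form in these differences was not tested.

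Comparing null G4 with heterozygous unsorted crypts, which asks how histone expression stood in crypts of late-generation telomerase-null mice, nearly all histone genes had higher values in null G4, but none passed the test. Of 53 tested, 52 had a positive difference, 23 had an unadjusted p under 0.05, as did 5071 of all 11464 tested genes, and 0 passed at an adjusted p under 0.05, where 4.97% of all tested genes were called higher and 0.576% lower (limma). The smallest adjusted p was 0.060. Values in null G4 did not overlap and were higher for 45 histone genes and lower for 0, where 74.7% of all tested genes were higher and 6.5% lower in this way. The median log2 difference was 0.75, against 0.36 for all tested genes, and 47 of the 53 lay above that median of all genes. The summed histone level was 3645 ± 157 RPKM (SD, n = 2) in null G4 and 2165 ± 57.6 (SD, n = 2) in heterozygous crypts, a ratio of 1.68.

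H2B genes had the highest class median, 0.98, followed by H1 at 0.90, H3 at 0.76, H4 at 0.60 and H2A at 0.45. Summed H2B genes came to 984 ± 18.5 RPKM (SD, n = 2) in null G4 and 505 ± 7.52 (SD, n = 2) in heterozygous crypts, and summed H1 genes to 675 ± 43.3 and 396 ± 19.4 RPKM. No class sum overlapped between the groups, those of H2A, H3 and H4 included, and null G4 was higher in each. Of all tested genes, 74.7% were also higher without overlap. Hist1h1b had the largest difference, 1.24 (SE 0.37, adjusted p = 0.060, limma), and Hist1h2bj, with 32.2 and 24.7 RPKM in heterozygous crypts and 62.2 and 64.4 RPKM in null G4, had 1.14 (SE 0.36). Hist1h4d had 0.74 (SE 0.31, adjusted p = 0.10, limma) and Hist1h1e 0.57 (SE 0.29, adjusted p = 0.15, limma). Hist2h2be, with 2.01 and 2.20 RPKM in heterozygous crypts and 1.75 and 2.42 RPKM in null G4, had -0.017 (SE 0.18) and was the one gene with a negative difference.

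**Figure D4:**
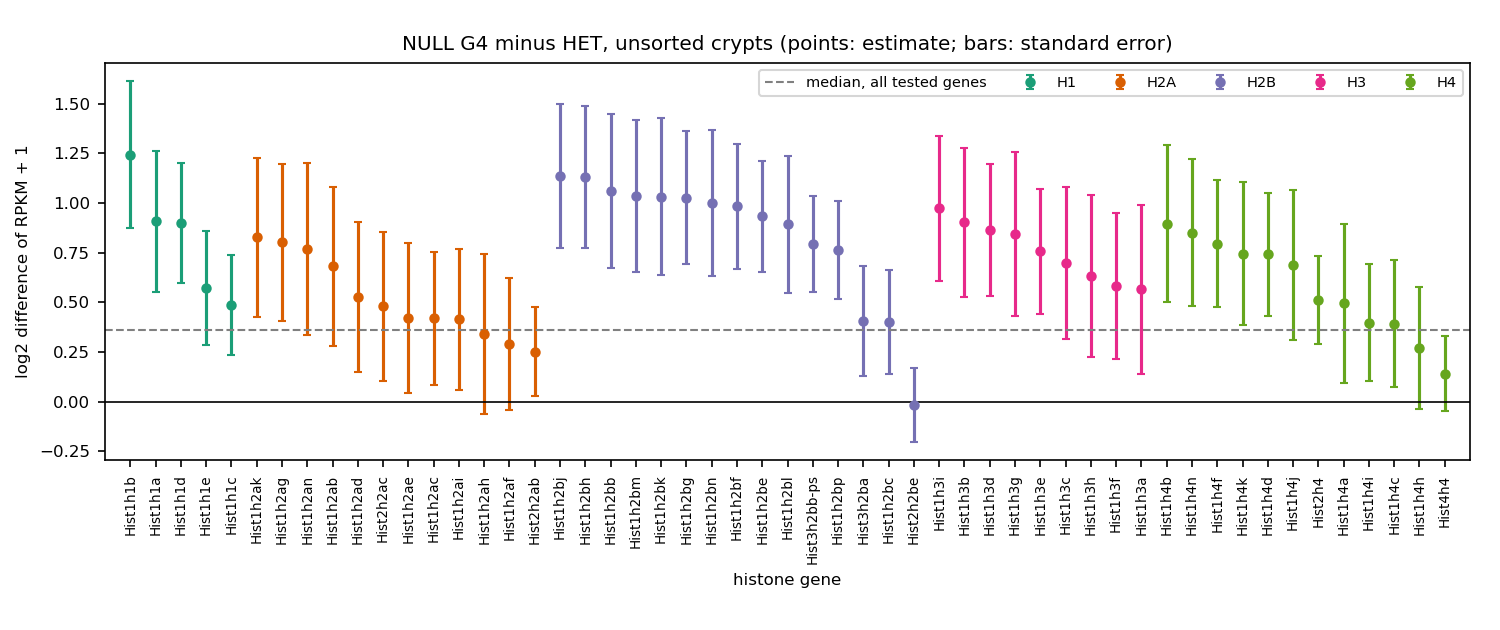
Log2 difference of RPKM + 1 between null G4 and heterozygous unsorted crypts for the 53 tested histone genes, by class; points are estimates, bars standard errors, the dashed line the median of all tested genes (0.36). All points except Hist2h2be lie above 0, and 47 lie above the dashed line.

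The count called depended on which libraries shared the estimate of spread. With the 4 libraries of the compared groups alone, or without either reactivated-labelled library, 32 of 53 histone genes were called higher (limma); of all genes, 49.2% were called higher with the 4 libraries alone, 48% without reactivated replicate 1 and 47.9% without replicate 2. Scaling moved the median of all genes, to 0.081 with median scaling and 0.016 with quantile normalization, and the histone median was then 0.39 and 0.26. With a sex term, which only the 2 reactivated-labelled libraries inform, the histone median was -0.36, that of all genes 0.093, and 0 histone genes were called.

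Cell cycle genes had higher values beside the histones in null G4. The S phase list had 45 of 45 positive differences with a median of 0.76, and 1 was called higher. The G2/M list had 20 of 22 called higher with a median of 1.05. The variant histones had a median of 0.54 with 0 of 9 called, the histone chaperones, which deliver histones to DNA, 0.76 with 2 of 19 called higher, and the genes of histone mRNA transcription and processing 0.52 with 1 of 23 called higher. Slbp was at 4.03 and 4.50 RPKM in heterozygous crypts against 7.13 and 7.11 RPKM in null G4, and Npat at 2.37 and 2.59 against 4.17 and 3.74. Divided by the S phase sum, the histone sum came to 11.9 and 11.4 for heterozygous crypts, 11.2 and 9.19 for null G4 and 10.9 and 11.1 for the reactivated label. On that scale both null G4 values lay below both heterozygous ones. The RNAs without a poly(A) tail had the opposite direction, with a median of -0.57 and 0 of 19 called. Summed, they came to 29766 and 21750 RPKM in heterozygous crypts against 15087 and 12005 RPKM in null G4. Some cell type markers moved too. All 7 small intestine markers had negative differences, with a median of -1.23 and 1 called lower, and summed to 96.9 and 289 RPKM in heterozygous crypts against 76.2 and 83.03 RPKM in null G4. Of 9 goblet entries, 2 were called lower and none higher, with a median of -0.11, and all 3 tuft markers had negative differences, with a median of -0.55 and none called. All 8 epithelial and all 6 stem cell markers had positive differences, with medians of 0.66 and 0.14 and none called. Summed, epithelial markers averaged 1860 RPKM in heterozygous crypts and 3047 RPKM in null G4. Positive differences were found for 3 of 6 colonocyte and 3 of 5 enteroendocrine markers, none called. The part of the cell cycle, of these cell types and of RNA without a tail in the histone values was not tested.

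The libraries labelled reactivated differed from each other more than the groups did. Replicate 1 was above replicate 2 for all 53 histone genes with an unsorted mean of 1 RPKM or more, by a median of 2.27-fold and a range of 1.31 to 3.23-fold. Over all genes at that level, 83.9% were higher in replicate 1, by a median of 1.27-fold. Replicate 1 lay above both heterozygous libraries for all 53, and replicate 2 lay below both null G4 libraries for 52 and below both heterozygous libraries for 35. The shares of all genes in these orders were not counted, so the counts do not show a trait of histone genes. In 45 of the 53, null G4 1 and 2 and reactivated 1 all lay above heterozygous 1 and 2 and reactivated 2, as did 65.2% of all genes at that level. That split is also the split by Xist and Y-linked expression. The S phase sum was 357 RPKM in replicate 1 and 174 in replicate 2, Mki67 was at 31.9 and 22.7 RPKM, and the RNAs without a poly(A) tail summed to 13950 and 27906 RPKM.

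Against null G4, the reactivated-labelled group had no histone gene called of 53, where 0.0174% of all genes were called higher and 0.00872% lower, and 0 histone genes had an unadjusted p under 0.05, against 310 of all 11464 tested genes (limma). The median difference was -0.37, against -0.14 for all genes. Values did not overlap and were lower for 4 genes, Hist1h1c, Hist1h2bh, Hist1h2bk and Hist1h3d, and higher for 0, where 25.5% and 4.58% of all genes did so. Hist1h2bk, at 65.8 and 59.9 RPKM in null G4 and 57.1 and 21.2 in the reactivated-labelled libraries, had the most negative difference, -0.83 (SE 0.40, adjusted p = 0.83, limma), and Hist1h1b had -0.67 (SE 0.37). Without reactivated replicate 1, the median was -0.92 and 6 histone genes were called lower, where 1.42% of all genes were. Without reactivated replicate 2 the median was 0.14 and none was called.

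Against the heterozygous libraries, again 0 of 53 were called, where 1.13% of all genes were called higher and 0.148% lower, and 0 had an unadjusted p under 0.05, against 1615 of all 11464 tested genes (limma). The median was 0.30, against 0.22 for all genes. Values were higher without overlap for Hist1h2be, Hist1h4d and Hist3h2bb-ps, 3 genes, and lower for 0, where 46.7% and 4.42% of all genes did so. Hist1h2be, at 6.203 and 6.04 RPKM in heterozygous crypts and 14.4 and 6.88 RPKM in the reactivated-labelled libraries, had 0.63 (SE 0.28, adjusted p = 0.35, limma). Without reactivated replicate 2, 27 histone genes were called higher and the median was 0.88, where 19.8% of all genes were called higher. Without reactivated replicate 1 the median was -0.20. Both comparisons share libraries with the one of null G4 and heterozygous crypts.

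Comparing null G3 with heterozygous sorted cells, no histone gene was called. Of 26 tested, all had a negative difference, with a median of -0.65 against -0.46 for all genes; 0 of 8734 tested genes were called in either direction (0% higher and 0% lower, limma), and 143 had an unadjusted p under 0.05, none of them a histone gene. Null G3 replicate 1 was the lowest sorted library for all 24 histone genes with a sorted mean of 1 RPKM or more, and 77.4% of all genes at that level did the same. Its level was a median of 0.0808 of the median of the other 5 libraries, with a range of 0.0315 to 0.713, against 0.338 over all genes. Without it the median difference was -0.048. Heterozygous replicate 3 was the lowest of its group for all 24, an order whose share over all genes was not counted. Its summed RPKM of genes not encoded in mitochondria was also the lowest of its group, at 153374 against 234693 and 261011.

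Hist1h1e was at 49.7, 65.97 and 30.6 RPKM in heterozygous cells and at 5.43, 37.0 and 59.3 RPKM in those of null G3, with a difference of -0.96 (SE 0.78, adjusted p = 0.48, limma). Replicate 1 of null G3 was low and the other 2 lay within the heterozygous range. Hist1h2bm, at 23.2, 28.0 and 8.37 against 0.797, 10.6 and 21.5 RPKM, had the most negative difference, -1.27 (SE 0.86). Hist1h2bc kept 12.5 RPKM in null G3 replicate 1 and lay between 14.8 and 19.8 in the other sorted libraries. Hist2h2be was the one histone gene without overlap, where 12.6% of all genes were lower and 0.114% higher without overlap. It was at 6.62, 8.09 and 6.48 RPKM in heterozygous cells and at 0.607, 4.88 and 5.57 RPKM in those of null G3, with a difference of -1.02 (SE 0.53, adjusted p = 0.48, limma). In null G3 replicate 1, S phase genes summed to 25.7 RPKM, where the remaining sorted libraries had 170 to 281, and variant histones to 42.7 against 180 to 292. Its histone sum per S phase sum, 1.53, lay at the top of the sorted range. The share held by mitochondrial ribosomal RNA was 71.9% in null G3 replicate 1, 64.4 and 46.8% in replicates 2 and 3, and 38.7 to 53.6% in heterozygous sorted cells. As a percent of the RPKM of genes not encoded in mitochondria, the histone sum was 0.0389, 0.177 and 0.178% in null G3 against 0.155, 0.158 and 0.113% in heterozygous cells, so on that scale null G3 replicates 2 and 3 lay above all 3 heterozygous libraries.

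The difference between the null effects in sorted and unsorted libraries was negative for all 54 histone genes, with a median of -0.97 against -0.73 for all genes. With the sorted libraries fitted apart, 26 histone genes were tested. Genes far below 1 RPKM in sorted cells have a sorted effect held near 0 on this scale. Their difference then mostly repeats the unsorted effect, which was positive for 52 of 53, so the shared sign is not a separate result. None was called, where 0% of all genes were called higher and 0.303% lower, and 7 of the 54 had an unadjusted p under 0.05, as did 3093 of all 11862 tested genes (limma). Without null G3 replicate 3, 5 were called lower, where 29.5% of all genes were. Hist1h1b had the most negative value, -2.35 (SE 1.21, adjusted p = 0.20, limma). Generation, cell population, sex and null G3 replicate 1 all differ between the 2 contrasts, and their part was not tested.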

How the data were processed

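The deposited table gives RPKM values that the authors made for each gene and library. STAR 2.3.0e and the build mm10 appear in the submitters' processing notes, with no role. Not given in the sources used here are the annotation, the counting program, its use of strand and its treatment of reads that fit several genes. Depth is not stated: low values fell within 0.05 of whole reads for 81.7 to 83.6% of low genes in unsorted and 20.0 to 83.6% in sorted libraries, so no counts were recovered. The analysis used limma 3.58.1 (R 4.3.3) on log2(RPKM + 1) with empirical Bayes and a mean trend; tests were two-sided, p-values were adjusted by Benjamini-Hochberg over every gene tested, and the threshold was 0.05. Genes entered a fit when the number of libraries at 1 RPKM or above was no smaller than its smallest group. Unsorted libraries (6) and sorted libraries (6) were fitted apart, and all 12 jointly for the comparison of preparations and the difference of null effects. A fold change on this scale understates that of low genes. The method was tested on simulated data. Groups came from the sample labels. Gene models and stem-loops came from GENCODE M21 (59 members matched by identifier, 7 by symbol) and promoters from RefSeq. Members were named with values where they passed a test or had a mean of 1 RPKM or more in either preparation. Members, lists and tests were chosen with earlier results of these data known. Alternatives were pseudocounts of 0.1 and 0.01, other filters, quantile and median scaling, a replicate block, a sex term, no mean trend and leaving out each library.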

Additional observations from a re-analysis of the deposited data

How the results depend on the processing

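The lower histone level in sorted cells kept its direction under every setting tried: 39 to 50 of the tested genes were called lower, and the summed level in heterozygous crypts was 6.83 times that of sorted cells, 5.57 to 8.05 times without single libraries, 8.33 times relative to genes not encoded in mitochondria and 9.46 times relative to the S phase sum. The count of 1 higher became 0 with a pseudocount of 0.1 or 0.01, no filter, a filter on the mean, a replicate block or no mean trend, became 2 with quantile normalization, median scaling or the heterozygous libraries alone (chosen after seeing the data), and ranged from 0 to 2 without single libraries. Hist1h2bl turned to 0.21 with quantile normalization, 0.31 with median scaling and 0.40 without heterozygous sorted replicate 3, with -0.43 the lowest value without a single library.

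In unsorted crypts, medians changed sign under a sex term, which the 2 reactivated-labelled libraries alone inform. For null G4 against heterozygous, the count called higher was 9 with a replicate block (1160 of 11464 genes in all), 32 with the 4 compared libraries alone (chosen after seeing the data), and 0 to 32 without single libraries, while the median stayed 0.75 without either reactivated-labelled library; with a sex term the median was -0.36, and Hist1h1e, Hist1h2bj and Hist1h4d had -0.12, -0.062 and -0.045. Hist2h2be had 0.028 without heterozygous replicate 2 and 0.14 without null G4 replicate 1, and at lowest -0.17 without replicate 2 of null G4. For reactivated against null G4, the median was 0.14 with the sex term or without reactivated replicate 2 and -0.92 without replicate 1, and 0 to 6 genes were called lower without single libraries. For reactivated against heterozygous, the median was -0.20 with the sex term or without reactivated replicate 1 and -0.0083 with quantile normalization, it was 0.88 without reactivated replicate 2, and 0 to 27 were called higher without single libraries. In sorted cells Hist1h1e had 0.0099 without null G3 replicate 1 and -1.60 without replicate 3. For the difference of null effects, 0 to 5 genes were called lower without single libraries, the 5 without null G3 replicate 3, where 29.5% of all genes were.

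The ratio of summed histone level was 1.68 for null G4 over heterozygous (1.63 to 1.74 without single libraries, 1.54 relative to the sum of genes not encoded in mitochondria), 0.802 for reactivated over null G4 (0.532 to 1.07), 1.35 for reactivated over heterozygous (0.895 to 1.80) and 0.666 for null G3 over heterozygous (0.418 to 0.936). Relative to the sum without mitochondrial genes, the last 3 were 0.805, 1.24 and 0.924. Relative to the S phase sum, an alternative chosen after seeing the data, these ratios were 0.876, 1.08, 0.948 and 1.13. The cause of these changes was not tested. The labels do not say whether replicate numbers pair the samples. Correlations of same-numbered deviations were 0.22, -0.069 and -0.12 in unsorted and 0.053, -0.030 and -0.19 in sorted libraries. With 2 libraries a group the deviations mirror each other, so the unsorted correlations cannot decide on pairing. The block changed the count of calls only as given above. With 2 or 3 libraries a group, precision is low, and RPKM gives no counting interval. Where leaving out a library left 1 in a group, that library is assumed to vary like the others.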
